A study of Mus musculus with 6 samples.

Results

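Mouse embryonic stem (ES) cells were crosslinked in 2 ways before RNA–RNA contacts were read, and the libraries made after ultraviolet light were set against the library made after chemical crosslinking. ES-1 and ES-2 came from E14 ES cells of strain 129/Ola irradiated at 254 nm. ES indirect came from the same feeder-free line, grown with LIF, and was treated with EGS and then formaldehyde. Every line of the 3 files was used, without selection on any measured value. These were 7844863 lines of the 10479650 in the whole series, and 3 of its 6 samples: 3230403 lines in ES-1, 1312314 in ES-2 and 3302146 in ES indirect. All 3 libraries came from 1 cell line and were made with RNA first broken to about 1000 nt by the labels, though the methods of the study allow longer pieces in ES-1.

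MARIO is a proximity ligation method. RNAs are fixed to the proteins that hold them, the proteins are tied to beads, a biotinylated linker is joined to the RNA, and neighbouring ends are ligated. By design, a sequenced molecule carries a first fragment (RNA1), the linker and a second fragment (RNA2). Each line of a file gives 1 pair of fragments, with a position, an RNA type and a name for both. Whether the linker itself was read is not given for a line. Ultraviolet light at 254 nm joins RNA to protein at points of direct contact. Formaldehyde and EGS also join protein to protein, so RNAs held in different parts of a larger assembly can be fixed together. Small nucleolar RNAs (snoRNAs) guide the chemical modification of other RNAs, chiefly ribosomal RNA: H/ACA snoRNAs guide pseudouridylation and C/D snoRNAs guide methylation of ribose. U3 is a C/D snoRNA of another kind, since it pairs with the 45S ribosomal precursor and is needed for its first cuts.

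The design limits every comparison below. There was 1 chemically crosslinked library, so no test of the crosslinker was made, and an exact permutation test of 2 libraries against 1 could not fall below p = 0.3333. A share was called beyond the UV libraries when the ES indirect value lay outside both UV values by more than the difference between ES-1 and ES-2. A level was called higher or lower when it was at least 2-fold above the higher or below the lower UV library; for single names 1 was added to each value first, and names with at least 20 ends per 1000000 ends outside ribosomal RNA, as the mean of the UV mean and ES indirect, were compared. A name that is rare in the UV libraries could pass this limit only by being high in ES indirect, and the reverse. The crosslinker also cannot be told apart from other differences. ES indirect was sonicated, whereas the UV lysates were cleared by centrifugation, treated with DNase and cut with RNase I. The UV libraries ran on 2 flow cells and ES indirect on 2 others. Depletion of ribosomal RNA did not follow the crosslinker: duplex-specific nuclease served ES indirect and ES-1, and a GeneRead kit served ES-2.

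Pairs of fragments with the same name differed in number between the libraries, and 3 snoRNAs show forms of such pairs within 1 RNA. Each sequence below runs from the outer end of one fragment to the outer end of the other, for the most frequent pair of places of a snoRNA, read from NCBIM37 (mm9), 5′ to 3′. Capitals mark RNA1. In the H/ACA snoRNA Snora33 (chr10:23505152-23505281, minus strand), the 107 nt of RNA1 lay 3′ of the 22 nt of RNA2, so the fragments stood in inverted order. This pair of places held 103 of the 4558 lines of ES-1 in which both names were Snora33. In U3 (gene ENSMUSG00000070243, chr11:87262129-87262343, plus strand) and in the H/ACA snoRNA Snora73a (chr4:131908690-131908891, minus strand), RNA1 lay 5′ of RNA2, as along the RNA. These held 156 of 729 same-name lines of that U3 copy and 136 of 907 of Snora73a in ES indirect.
Snora33: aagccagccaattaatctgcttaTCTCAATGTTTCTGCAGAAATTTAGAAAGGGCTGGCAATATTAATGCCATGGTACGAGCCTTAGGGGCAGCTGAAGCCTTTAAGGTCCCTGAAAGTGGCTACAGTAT
U3: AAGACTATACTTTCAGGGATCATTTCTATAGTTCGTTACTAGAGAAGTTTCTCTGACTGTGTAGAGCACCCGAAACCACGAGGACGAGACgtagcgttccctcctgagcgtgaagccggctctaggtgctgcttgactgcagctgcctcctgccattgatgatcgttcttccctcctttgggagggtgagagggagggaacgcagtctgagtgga
Snora73a: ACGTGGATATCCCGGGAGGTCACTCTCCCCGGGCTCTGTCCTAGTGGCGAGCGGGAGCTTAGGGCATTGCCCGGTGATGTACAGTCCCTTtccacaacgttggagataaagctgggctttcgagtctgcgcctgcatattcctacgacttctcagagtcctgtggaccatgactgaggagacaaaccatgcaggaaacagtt

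Depth and fragment length differed between the libraries, also between ES-1 and ES-2. Median lengths of RNA1 were 48, 28 and 90 nt in ES-1, ES-2 and ES indirect, and those of RNA2 were 56, 34 and 100 nt. Each is the length of the deposited sequence, which cannot exceed the read. In ES indirect, ends in ribosomal RNA, protein-coding genes, snoRNAs and lincRNAs each had a median of 90 nt. How many fragments reached beyond their read was not tested. Repeated lines, whose coordinates had already occurred in the same file, came to 28.5%, 5.37% and 49.9%, so values are also given with lines of equal coordinates collapsed to 1, which left 2310134, 1241787 and 1655476 lines. RNA1 sequences were found at their stated place with up to 15% mismatches in 90.8%, 75.6% and 93.7% of lines. At least 1 end was ribosomal in 78.1%, 81.2% and 53.9% of lines. Over ends outside introns, markers fixed for fibroblasts summed to 31.6, 39.9 and 21.0 ends per 1000000 ends outside ribosomal RNA in ES-1, ES-2 and ES indirect. Those for brain summed to 19.96, 41.5 and 28.1, against 952, 607 and 1759 for markers of ES cells. Over intronic ends the sums were 68.2, 225 and 109 for fibroblasts, 52.6, 214 and 120 for brain and 105, 95.5 and 2262.5 for ES cells. In ES-2 the intronic sum of ES cell markers was thus the lowest.

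Pairs of fragments with the same name made up most of ES indirect over all lines and a minority of both UV libraries. An equal name does not show that both fragments came from 1 RNA molecule or 1 locus. Both names were equal in 19.4% of lines in ES-1 (95% Wilson interval 19.35 to 19.44), in 17.2% in ES-2 (17.1 to 17.3) and in 62.5% in ES indirect (62.5 to 62.6). These intervals cover counting error only, since lines of equal coordinates may not be independent. Whether such lines came from 1 molecule was not tested. The ES indirect share exceeded the higher UV share by far more than the UV libraries differed. With equal coordinates collapsed, the shares were 18.6%, 16.9% and 42.7%, so the order held and the gap narrowed. Among lines without a ribosomal end, the shares were 19.8%, 7.83% and 67.1%, and collapsed they were 13.8%, 7.01% and 49.7%. The UV shares depended on fragment length: with both fragments of at least 30 nt they were 28.7% and 35.2%, against 75.2% in ES indirect, so the order of ES-1 and ES-2 turned.

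Outside ribosomal RNA, most same-name pairs joined places within 2000 bp: 5280 of 140593 in ES-1, 1164 of 19330 in ES-2 and 59427 of 1023031 in ES indirect lay farther apart or on different chromosomes. With ribosomal lines included, distant pairs were common, and 12.5%, 14.2% and 28.6% of the lines with distant ends had equal names. Of the lines without a ribosomal end and with ends over 2000 bp apart or on different chromosomes, 1.03% in ES-1, 0.52% in ES-2 and 14.1% in ES indirect had equal names. Collapsed, these shares were 0.94%, 0.48% and 12.6%. A repeat name stands for many loci, so a same-name pair of distant ends can join different copies of a repeat. No flow cell held libraries of both crosslinkers. Lines without a ribosomal end had equal names in 22.5% and 18.3% on the flow cells of ES-1, in 7.77% and 7.91% on those of ES-2, and in 65.4% and 68.8% on those of ES indirect.

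The gap was present in most RNA types and largest for protein-coding genes. In ES indirect, both fragments were intronic in 75.8% of the same-gene pairs of these genes. Of lines with an end in a protein-coding gene, both ends carried the same name in 8.83% in ES-1, 1.92% in ES-2 and 63.7% in ES indirect (collapsed 4.87%, 1.79% and 40.2%). For lincRNAs the shares were 6.08%, 1.16% and 52.6%, and for spliceosomal and other small nuclear RNAs they were 2.39%, 1.11% and 22.8%. For snoRNAs they were 5.82%, 3.42% and 21.9%. Collapsed, ES indirect remained beyond the UV libraries in these types at lower shares, with 4.10%, 1.17% and 31.9% for lincRNAs, 2.38%, 1.14% and 16.2% for small nuclear RNAs and 3.13%, 2.79% and 10.6% for snoRNAs. Among repeats the shares were 4.07%, 1.59% and 28.5% for LTR elements, 4.01%, 1.75% and 24.7% for LINEs and 1.87%, 0.52% and 9.67% for SINEs (collapsed 24.97%, 23.3% and 5.91% in ES indirect). DNA transposons departed from it over all lines, with 1.78%, 1.23% and 1.67%, but not when collapsed, with 2.63%, 1.27% and 5.23%. For tRNAs the shares were 0.039%, 0.047% and 2.17%. For miRNA genes they were 2.41% in ES-1, 0 of 2499 lines in ES-2 and 2.72% in ES indirect, and collapsed 0.70% in ES-1 and 2.22% in ES indirect.

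**Figure D1:**
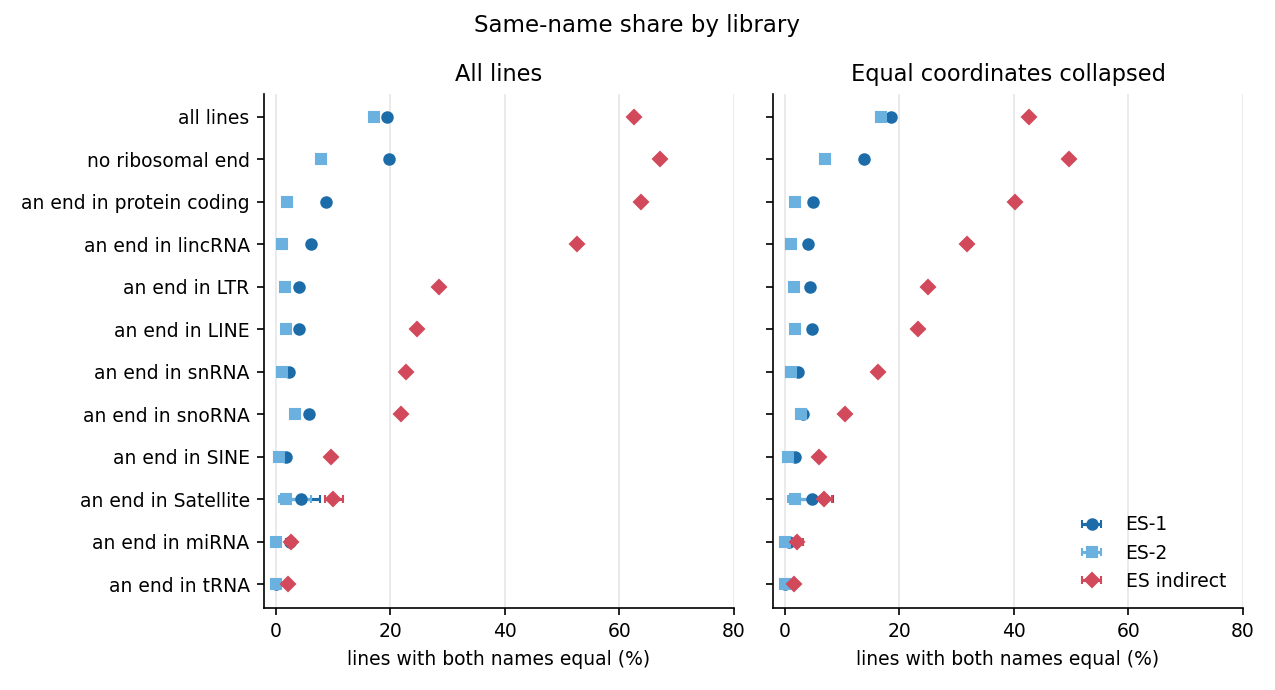
Share of lines whose RNA1 and RNA2 carry the same name, in percent of the lines with an end in each RNA type, for ES-1, ES-2 and ES indirect, with all lines on the left and equal coordinates collapsed on the right; bars are 95% Wilson intervals and mostly lie within the points. For protein-coding genes the shares were 8.83%, 1.92% and 63.7% over all lines and 4.87%, 1.79% and 40.2% collapsed.

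Single RNAs followed the types. Of 257 names with at least 200 lines in each library, 230 had a same-name share in ES indirect beyond both UV libraries on the higher side (89.5%), none on the lower side (0.0%) and 27 neither. With equal coordinates collapsed, 175 of 198 were higher (88.4%) and 1 was lower (0.505%). Fewer names reached 200 lines under other settings: 32 of 36 were higher with both fragments of at least 30 nt, 110 of 125 with both fragments at their stated place, and 137 of 195 without pairs within 2000 bp. Among those with most same-name lines in ES indirect after collapsing, Malat1, a nuclear noncoding RNA of speckles, had shares of 9.1% in ES-1, 1.9% in ES-2 and 53.6% in ES indirect. Fgfr2, named for a receptor for fibroblast growth factors, had 8.4%, 3.1% and 51.5%. Its annotated gene also covers a stretch of Ctbp2 on the same strand, so this share may not be of the receptor RNA alone. The active LINE family L1Md_A had 19.3% in ES-1, 73 of 730 lines in ES-2 and 35.0% in ES indirect, and the endogenous retrovirus IAPEz-int had 32.0%, 21.0% and 48.2%. U1, the small nuclear RNA that pairs with 5′ splice sites, had 2.9%, 1.5% and 22.2%. Over all small nuclear RNAs, collapsed same-name lines had both ends on 1 chromosome in 55.5%, 53.6% and 54.7%, so such a name can join different loci.

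Abundant H/ACA snoRNAs mostly lay beyond the UV libraries once collapsed, but Snora33 did not. Among the names with most same-name lines in the UV libraries, Snora73a had 2.2%, 2.3% and 29.4% collapsed, and Snora73b had 2.4%, 1.7% and 26.4%. Both therefore lay beyond the UV libraries. So did SNORA57 (5.5%, 4.5% and 27.1%), Snora43 (6.1%, 6.2% and 17.9%) and Snora81 (4.9%, 3.5% and 7.7%), though Snora81 did not over all lines. Their ES indirect shares rested on 96, 40 and 24 same-name lines. Snora33, in contrast, had 6.4%, 5.2% and 6.0%, with 17 same-name lines in ES indirect. In all lines it had 9.66%, 6.04% and 5.86%, so ES indirect did not exceed the UV libraries. Fhit, a gene at a common fragile site, was also among the 27 names that did not differ beyond the UV spread, with 2.06%, 0.30% and 1.58% in all lines, as was the spliceosomal U5 RNA, with 1.47%, 0.38% and 1.49%.

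Fragments with the same name also stood in different order. Among same-name lines whose fragments did not overlap, RNA1 lay 5′ of RNA2 along the RNA in 92.2% of lines in protein-coding genes in ES-1, 92.6% in ES-2 and 90.6% in ES indirect, and collapsed in 92.5%, 92.6% and 81.7%. In H/ACA snoRNAs the in-order share was 14.6%, 10.7% and 83.5%, and in C/D snoRNAs 12.1%, 16.0% and 87.9%. Collapsed, the shares were 11.7%, 10.3% and 52.3% in H/ACA snoRNAs and 10.9%, 24.8% and 49.8% in C/D snoRNAs. The order in these guide families was thus mostly inverted in the UV libraries, and in ES indirect it was about even once repeated lines were collapsed. Single snoRNAs differed, and Snora73a held 732 of the 1868 in-order H/ACA lines of ES indirect. Small Cajal body RNAs were mostly in order in ES-1 as well, with 84.2%, 56.0% and 89.5% (collapsed 64.2%, 36.7% and 72.6%). Over all lines Snora73a, shown above, had 36.7%, 11.8% and 94.5% in order. The U3 copy shown above had 62.1% in ES-1 and 94.2% in ES indirect, with only 5 same-name lines in ES-2. SNORA57 had 51.8%, 28.0% and 55.2%, and Snora81 had 3.49%, 4.85% and, with 3 lines in order against 14, 17.6%. Snora33 had 1.97% and 1.04% in the UV libraries, and its 19 same-name lines in ES indirect were too few to place. The median gap between the fragments as deposited was 26, 57 and 15 nt in protein-coding genes and 2, 10 and 4 nt in H/ACA snoRNAs. Whether a linker stood between the fragments of a line, or whether they came from 1 unbroken stretch of RNA, was not tested. For RNA structure, the study left out same-gene pairs in which no linker sequence was read. No such selection was made here.

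RNA types differed in level as well. Levels of types are given in EPM, the ends of a type per 1000000 ends of all types in a library, and are therefore shares: a type can only be lower if others are higher. Of 19 types, 7 lay at least 2-fold beyond both UV libraries. Protein-coding genes held 100656 EPM in ES-1, 166970 in ES-2 and 366074 in ES indirect, 2.19-fold above the higher UV library. Collapsed, they were 1.959-fold above it and fell short of the 2-fold rule. Antisense transcripts (276, 451 and 1176), processed transcripts (109, 130 and 416), DNA transposons (577, 910 and 6729) and satellites (39.9, 44.2 and 244) were also higher. Ribosomal RNA held 534788, 541286 and 466946 EPM and was not beyond the UV libraries.

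SnoRNAs and tRNAs were lower in ES indirect. SnoRNAs held 240592 EPM in ES-1, 103535 in ES-2 and 14161 in ES indirect, 7.31-fold below the lower UV library, and the fold was the same with equal coordinates collapsed. Transfer RNAs held 5163, 15427 and 1438, 3.59-fold below (2.32-fold collapsed). LINEs (13918, 25953 and 21654), LTR elements (7856, 19507 and 18751), lincRNAs (3772, 7406 and 10822) and small nuclear RNAs (11709, 4416 and 7769) were within 2-fold of a UV library or between both. Fragment length moved with some of these values: when both fragments had at least 30 nt, protein-coding genes held 74159, 69107 and 373721 EPM and LTR elements 2760, 5650 and 17257. The fold for protein-coding genes thus rose, and LTR elements, which lay between the UV libraries over all lines, lay above both. With both fragments found at their stated place, snoRNAs held 258579, 130692 and 14535.

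**Figure D2:**
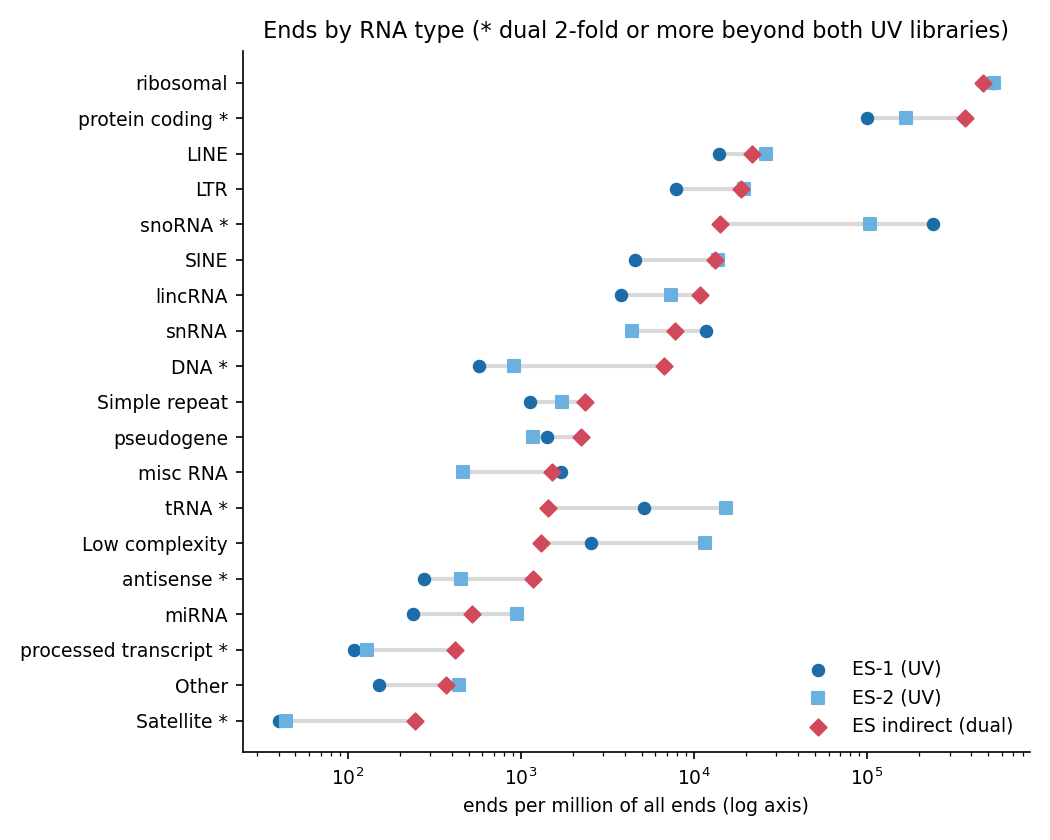
Ends per 1000000 ends of all types (EPM) in each of the RNA types (log scale) in ES-1, ES-2 and ES indirect. The snoRNA values were 240592, 103535 and 14161, and those of protein-coding genes 100656, 166970 and 366074.

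Within the snoRNAs, the guide families were lower and U3 was not. For families and single names, EPM from here on counts ends per 1000000 ends outside ribosomal RNA. Here and above, ends in mitochondrial ribosomal RNA were kept among the non-ribosomal ends, with 57191, 7519 and 2582 EPM in ES-1, ES-2 and ES indirect. On this scale all snoRNAs held 517167, 225707 and 26565 EPM, so that a name can be higher in ES indirect because snoRNAs take less of the total. These are bulk libraries, in which fewer cells with an RNA and less of it per cell cannot be told apart. H/ACA snoRNAs summed to 394125 in ES-1, 164705 in ES-2 and 4688 in ES indirect, C/D snoRNAs named Snord to 80278, 47411 and 3793, and the Cajal body RNAs, which guide modification of spliceosomal RNAs, to 18471, 3180 and 1192. U3 summed to 5487, 1486 and 16327. U3 thus made up 1.06%, 0.66% and 61.5% of all snoRNA ends. Collapsed, U3 held 6144, 1473 and 12992 EPM.

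Single snoRNAs went the same way as their families. Of 2551 names of all types tested over non-intronic ends, 728 were higher in ES indirect (28.5%) and 515 lower (20.2%). The balance turned with equal coordinates collapsed, to 435 higher and 507 lower. Of 163 H/ACA snoRNAs tested, 161 were lower and none higher. Of 128 C/D snoRNAs, 119 were lower and 1 higher, which was Snord17 (291, 62.3 and 728), and it was not higher once collapsed. Of 20 Cajal body RNAs, 16 were lower. The median log2 difference from the UV mean was -5.54 for H/ACA, -4.36 for C/D and -3.14 for Cajal body RNAs, against 0.55 for all names tested. The farthest was the SNORA81 copy of gene ENSMUSG00000088895, with 9698, 12202 and 14.2 EPM, followed by SNORA3 of gene ENSMUSG00000077603, with 1138, 1290 and 1.42.

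Of 11 U3 copies tested, 6 were higher and none lower. The copy of gene ENSMUSG00000064400 held 299 EPM in ES-1, 134 in ES-2 and 2698 in ES indirect, 3.17 on the log2 scale above the higher UV library. A further 4 held 852 to 884 in ES-1, 217 to 241 in ES-2 and 2684 to 2776 in ES indirect, and their log2 differences were 1.64 to 1.70. U3 copies are nearly identical in sequence, so how ends are split between them is uncertain and the sum is the firmer value. Transfer RNAs were lower too: 45 of 55 families tested were lower and none higher, for example tRNA-Ser-TCY with 313, 1354 and 19.6 EPM and tRNA-Ser-AGY with 414, 2260 and 34.7.

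The places in the 45S precursor differed in the same libraries. The 45S precursor holds external and internal spacers, which are removed during ribosome assembly, beside the mature ribosomal RNAs. Only the stretch of it that NCBIM37 carries on chromosome 17 could be examined, with the last 500-nt bin starting at 5500 nt. In the UV libraries most of its ends were deposited as SSU-rRNA_Hsa, small-subunit ribosomal RNA (893930 in ES-1 and 250394 in ES-2). In ES indirect all 1419397 were deposited as Rn45s, so its parts cannot be compared by name. Of all ends placed in it, 2.44% in ES-1 (22475 of 920322), 0.95% in ES-2 (2426 of 254086) and 40.5% in ES indirect (574479 of 1419397) lay in the first 3000 nt. Collapsed, these shares were 0.88%, 0.77% and 21.7%. Of lines with both ends in the locus, 8.25%, 2.90% and 47.8% had both of them there (collapsed 1.68%, 1.31% and 28.4%). The naming of this locus differed between the deposited files and was made equal here by position.

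**Figure D3:**
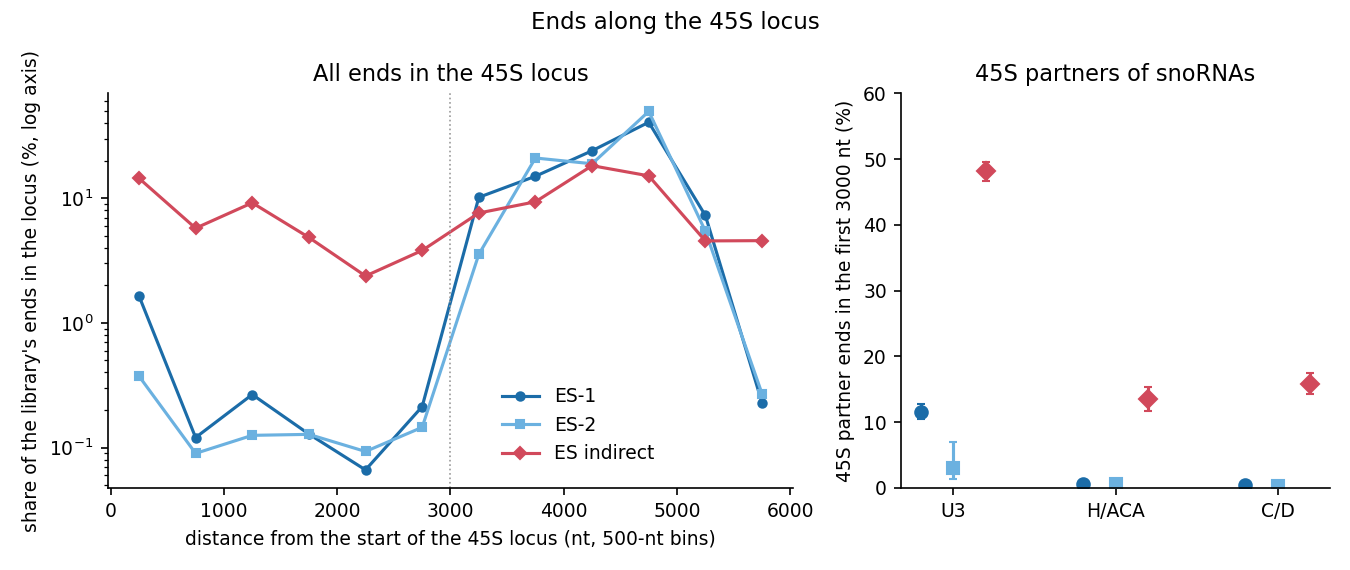
Left, share of the ends in the 45S ribosomal RNA locus by distance from its start, in percent per bin of 500 nt (log axis), for ES-1, ES-2 and ES indirect. Right, share of 45S ends joined to U3, H/ACA or C/D snoRNAs that lay in the first 3000 nt, with 95% Wilson intervals. In ES indirect 40.5% of ends lay in the first 3000 nt, against 2.44% in ES-1 and 0.95% in ES-2.

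SnoRNAs met these places to different extents. Where a U3 end was joined to an end in the 45S locus, the 45S end lay in the first 3000 nt in 11.5% of lines in ES-1 (354 of 3071, 95% Wilson interval 10.4 to 12.7), in 3.09% in ES-2 (5 of 162, 1.33 to 7.02) and in 48.1% in ES indirect (2014 of 4184, 46.6 to 49.7). Over all lines the shares were 0.65%, 0.60% and 13.5% for H/ACA snoRNAs and 0.44%, 0.35% and 15.8% for C/D snoRNAs. Collapsed, they were 5.92%, 2.65% and 45.3% for U3, 0.61%, 0.52% and 12.4% for H/ACA snoRNAs and 0.48%, 0.34% and 14.6% for C/D snoRNAs. The U3 share was therefore above the share of the guide families in all 3 libraries. In ES indirect the share of all 45S ends there was 40.5%, and 21.7% collapsed. Among lines with a snoRNA, the share with a ribosomal end was lower in ES indirect. Such an end was present in 64.4%, 58.8% and 29.4% of lines with an H/ACA snoRNA, in 66.8%, 56.1% and 42.8% of those with a C/D snoRNA, and in 63.7%, 53.0% and 21.2% of those with U3. Collapsed, the shares were 68.3%, 59.1% and 36.9% for H/ACA snoRNAs, 69.4%, 56.9% and 49.4% for C/D snoRNAs, which is not beyond the UV spread, and 66.1%, 53.2% and 38.1% for U3. Lines that joined U3 to ribosomal RNA numbered 2980, 644 and 2239 per 1000000 lines, and collapsed 3230, 647 and 4001, so ES indirect lay between the UV libraries over all lines and above both when collapsed. The share of U3 lines with U3 at both ends was 9.10%, 12.2% and 64.9%, and collapsed 7.69%, 10.99% and 36.6%. Among lines that joined different names, pairs of ribosomal RNA with a snoRNA made up 40.03%, 16.9% and 1.80%.

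Protein-coding genes held more intronic ends in ES indirect. Introns held 50.2% of the ends in protein-coding genes in ES-1, 62.0% in ES-2 and 76.0% in ES indirect (collapsed 57.1%, 62.5% and 77.4%). ES indirect lay beyond ES-2 by slightly more than the UV libraries differed from each other. Coding and other exons held 27.9%, 18.7% and 12.2%, 3′ UTRs 14.3%, 7.43% and 8.11%, and 5′ UTRs 7.55%, 11.8% and 3.61%. Introns held 108625, 225694 and 521928 EPM outside ribosomal RNA.

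The strand separated these intronic ends further. An end on the strand of its gene can come from a precursor RNA of that gene, whereas an end on the other strand cannot. Of intronic ends, 51.3% in ES-1, 49.5% in ES-2 and 87.6% in ES indirect lay on the sense strand. Sense intronic ends came to 54620, 109533 and 446995 EPM, and antisense intronic ends 51811, 111729 and 63015. The libraries therefore differed in sense ends, with the antisense level of ES indirect between the UV levels. In exons the sense share was 90.7%, 71.2% and 91.0%. At least 10 sense intronic ends were found in 3391, 2216 and 9424 genes. In genes under 20 kb the intronic sense share was 72.8%, 57.1% and 85.9%, and in genes over 200 kb it was 36.2%, 46.7% and 82.1%.

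Intronic fragments were joined to the same gene in ES indirect. An intronic end had its partner in the same gene in 9.96% of cases in ES-1, 3.68% in ES-2 and 76.2% in ES indirect, and an end in a 3′ UTR in 25.2% in ES-1, 3.79% to 4.22% in ES-2 (95% Wilson interval) and 74.2% in ES indirect. Collapsed, the shares were 9.21%, 3.74% and 55.6% for introns and 11.3%, 3.64% and 52.4% for 3′ UTRs. Among same-gene pairs, both fragments were intronic in 30.6%, 61.7% and 75.8%, and both exonic in 66.4%, 31.6% and 20.7%. Collapsed, the both-intronic shares were 56.3%, 67.6% and 78.9%, so the low value of ES-1 was in part one of repeated lines. In ES indirect 92.7% of intronic ends joined to their own gene were sense, against 71.3% of those joined to another name.

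**Figure D4:**
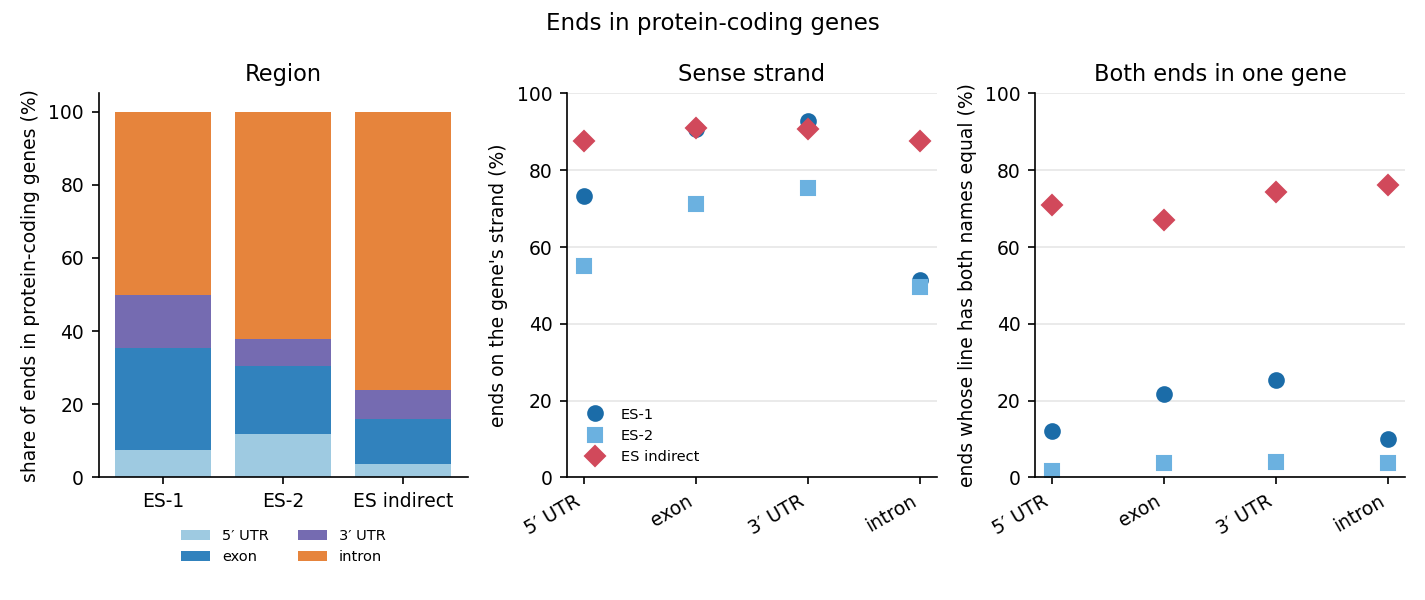
Ends in protein-coding genes by region (5′ UTR, exon, 3′ UTR, intron), in percent of all such ends and, for each region, the percent on the sense strand and the percent joined to the same gene, in ES-1, ES-2 and ES indirect. The intronic sense share was 51.3%, 49.5% and 87.6%.

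Sequence resemblance to ribosomal RNA moved with the intronic ends of the UV libraries. An end was counted as ribosomal-like when at least 50% of its stretches of 18 nt also occurred in fragments placed in ribosomal RNA. Of intronic ends of at least 18 nt, 34.8% in ES-1, 39.0% in ES-2 and 2.13% in ES indirect were ribosomal-like, and of non-intronic ends in protein-coding genes 7.77%, 25.2% and 1.29%. The part of this in the intronic and sense shares was not tested. Ends in protein-coding genes were found at their stated place in 71.8%, 49.7% and 94.7%, with a median length of 36, 21 and 90 nt.

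Intronic levels of single genes were compared where they passed the limit of 20 EPM, which a gene with few intronic ends in the UV libraries passed only by being high in ES indirect, so the counts of calls are a description. Of 3696 protein-coding names tested over intronic ends, 2514 were higher (68.0%) and 124 lower (3.35%), with a median log2 difference from the UV mean of 2.62. With equal coordinates collapsed as well, 2376 were higher and 81 lower. Plekha7, which encodes a protein of adherens junctions, held 23.95 intronic EPM in ES-1, 24.1 in ES-2 and 1531 in ES indirect, 5.93 on the log2 scale above the higher UV library, and 99.7% of its ends in ES indirect were sense. Its same-gene share was 5.56%, 20.7% and 88.1%. Map3k1, a kinase of the JNK pathway, held 2.66, 4.98 and 312, a log2 difference of 5.71.

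Itpk1, an inositol phosphate kinase, held 18.3, 19.1 and 1055 intronic EPM. Eif2c2, which encodes the Argonaute protein Ago2, held 5.66, 10.8 and 547. Gab1, an adaptor of receptor tyrosine kinases, held 10.6, 15.8 and 769, and Zfp704, a zinc finger gene, held 14.3, 37.4 and 1623. Fam196a was an exception in strand, with 2.99, 4.98 and 262 ends of which 3.15% were sense in ES indirect, and its densest stretch lay in the gene Dock1 on the other strand. The ends of the 2514 higher genes were scattered: the median gene had 5.8% of its ES indirect ends in its densest 50 nt, and 28 genes had over 50% there.

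Over exons, more protein-coding names were higher than lower. Of 1659 tested, 614 were higher and 113 lower, of which 339 and 104 were so also when collapsed, with a median log2 difference of 0.93, against 728 and 515 over all 2551 names. Ctbp2, a transcriptional corepressor, held 24.3 EPM in ES-1, 22.4 in ES-2 and 184 in ES indirect, a log2 difference of 2.87. Its densest stretch in ES indirect overlaps the annotated gene Fgfr2 as well, on the same strand. Mid1, a ubiquitin ligase bound to microtubules, held 68.5, 64.0 and 483. Ahnak, a very large scaffold protein, held 48.6, 26.6 and 260, and Plec, which links cytoskeletal filaments, held 35.3, 74.8 and 327. Pfkp, a phosphofructokinase of glycolysis, held 49.2, 32.4 and 216. Mid1, Ahnak and Plec had same-name shares of 86.4%, 87.0% and 92.4% in ES indirect.

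The scale of this comparison also moved the balance of calls. Per 1000000 of all ends instead, the median of the same 2551 names moved from 0.55 to 0.73, and 839 of them were higher and 486 lower. When the limit of 20 EPM was also applied on that scale, 1244 names were left, of which 318 were higher and 379 lower, so higher names made up 45.6% of calls in place of 58.6%. For intronic ends the same shares were 96.3% and 95.3%. With strand-aware GENCODE names, 545 of 1735 names were higher and 318 lower over exons.

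**Figure D5:**
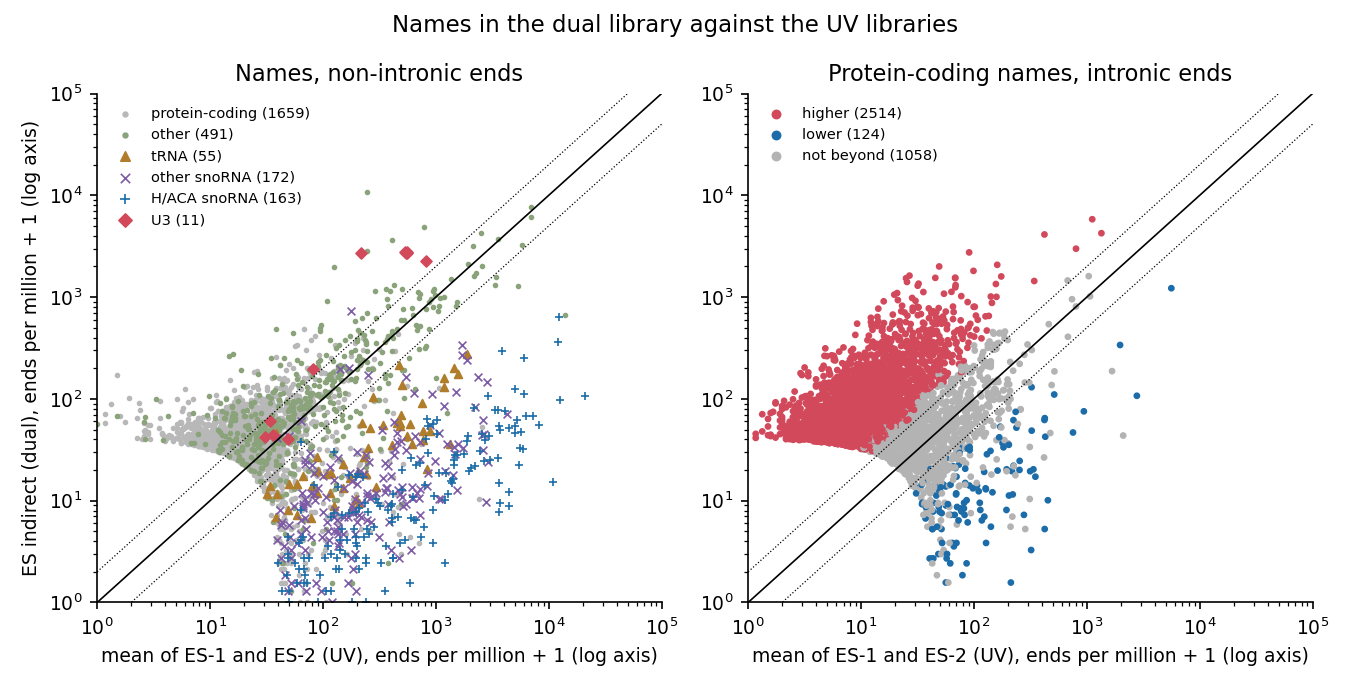
EPM outside ribosomal RNA, plus 1, of each name in ES indirect against the mean of ES-1 and ES-2 (both axes logarithmic), for non-intronic ends of 2551 names by RNA type (left) and intronic ends of 3696 protein-coding names by call (right). The solid line marks equal levels and the dotted lines 2-fold; H/ACA snoRNAs lie below the lines, U3 copies with the most ends above them, and 2514 names on the right are higher.

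Members called in gene lists are given beside the shares over all names, and no difference from those shares was tested. Over all names tested 28.5% were higher and 20.2% lower, and over protein-coding names, to which the lists of mRNAs belong, 37.0% were higher and 6.81% lower. Replication-dependent histone genes, which are transcribed in S phase into mRNAs without a poly(A) tail, had 30 of 56 members (53.6%) higher and none lower, and all 30 were higher also when collapsed. Hist1h1a held 13.3, 15.0 and 153 EPM, and Hist1h3h 34.3, 15.8 and 185. Histone genes are near-identical copies, so single values are uncertain. Ribosomal protein mRNAs had 12 of 38 higher (31.6%, not above the protein-coding share) and none lower, for example Rps19 with 7.98, 5.81 and 63.9. ES cell markers had 7 of 16 higher (43.8%) and none lower, 4 of them also when collapsed. Esrrb, a nuclear receptor of the pluripotency network, held 123, 59.0 and 272 over exons and 27.3, 27.4 and 979 over introns. Pou5f1, the gene of Oct4, held 38.9, 33.2 and 114 and was not beyond the UV libraries once collapsed, and Sox2 held 176, 101 and 117.

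Of 10 translation factors 2 were higher (1 also when collapsed), of 12 glycolysis genes 4 (1 when collapsed), of 10 cytoskeletal genes 3 (3 when collapsed), of 12 nucleolar and nuclear protein genes 3 (1 when collapsed), and of 10 chaperone genes none. Of 11 secreted and membrane protein mRNAs, Slc3a2 was higher, though not when collapsed, and Lamc1, a laminin chain, was lower (135, 281 and 52.8). Their median log2 differences were between -0.00 and 1.01.

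Of 4 noncoding RNAs tested in the list of cytosolic and nuclear noncoding RNAs 3 were higher, and of 8 spliceosomal RNAs none was. Malat1 held 631, 188 and 3612 EPM, a log2 difference of 2.51 from the higher UV library, and Meg3, an imprinted noncoding RNA, held 14.3, 15.8 and 276. The RNA 7SK, which holds back the elongation factor P-TEFb, held 244, 249 and 694. Rian, from the same imprinted locus as Meg3, held 174, 69.8 and 182 and was not called. None of the spliceosomal RNAs was lower either. U1 held 10161, 3632 and 7586, U2 held 8219, 3282 and 3242, and U4 held 1509, 473 and 1053. Among ends of U4, 1.8% and 1.1% in the UV libraries and 57.3% in ES indirect were joined to U4. Collapsed, the share of lines with U4 at both ends was 1.16%, 0.61% and 15.5%, and for U1 it was 2.94%, 1.46% and 22.2%. For U5 it was 1.55%, 0.41% and 1.64%, not beyond the UV libraries.

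Several families of endogenous retroviruses and L1 elements were among the repeats farthest above the UV libraries. MERVL-int, the internal part of an endogenous retrovirus, held 137 EPM in ES-1, 111 in ES-2 and 1969 in ES indirect, and its LTR, MT2_Mm, held 12.3, 15.0 and 263. IAPEz-int held 192, 301 and 2843. The LINE family L1Md_A held 899, 677 and 4854, the SINE B2_Mm1a held 86.8, 102 and 529, and the major satellite GSAT_MM held 44.6, 43.2 and 248. Of 217 LTR names tested 40 were higher and 11 lower, of 83 LINE names 8 and 4, and of 32 SINE names 5 and 0. The higher shares of 18.4%, 9.64% and 15.6% were all below the 28.5% over all names tested. All 4 satellite names tested were higher. A repeat name pools copies, and these values cannot tell which of them were transcribed.

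The excess of DNA transposons rested on 1 name. FordPrefect held 335, 154 and 10824 EPM (collapsed 134, 137 and 2870) and made up 27.0%, 7.75% and 85.7% of the ends in DNA transposons. A further 2337 ends of ES-1 and 372 of ES-2 that the files name FordPrefect lay in the 45S locus itself and were counted there. Without it the type held 421, 839 and 960 EPM of all ends. In ES indirect, 63.3% of its ends lay in 1 stretch of 50 nt, chr11:103934301-103934350. The place of the most frequent fragment (chr11:103934295-103934384, minus strand) resembles a stretch of the 45S locus (chr17:39980009-39980098, plus strand), as the pair of sequences from NCBIM37 shows. They share 94.444% of 90 nt, and capitals mark the 5 bases at which they differ.
FordPrefect: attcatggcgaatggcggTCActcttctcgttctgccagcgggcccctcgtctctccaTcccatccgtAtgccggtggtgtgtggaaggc
45S locus: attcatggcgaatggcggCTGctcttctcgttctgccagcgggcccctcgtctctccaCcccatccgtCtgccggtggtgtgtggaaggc
All 7540 fragments placed there were closer to the 45S stretch than to their stated place, and the most frequent one had 2 mismatches to the former and 5 to the latter. Mir5099 was alike, with 46.6, 28.2 and 483 EPM, and 99.9% of its ES indirect ends were ribosomal-like.

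Names that were lower in ES indirect, other than snoRNAs and tRNAs, were mostly short stretches. Dcun1d4, which encodes a factor of neddylation, held 565 EPM in ES-1, 4241 in ES-2 and 9.37 in ES indirect, a log2 difference of -5.77 from the lower UV library. Ppp1r14a, an inhibitor of myosin phosphatase, held 184, 1219 and 2.84, and Chn1, a Rac regulator, held 157, 718 and 10.5. In the intron of Pdgfb, a growth factor gene, 183, 488 and 19.3 were found. At least 98.3% of the ends of each of these 4 genes, in either UV library, lay in a single window of 50 nt. Their most frequent fragments are printed because 4 unrelated genes shared 17 nt, which are in capitals. The windows on NCBIM37 are chr5:73883751-73883800 (plus) for Dcun1d4, chr7:30074401-30074450 (minus) for Ppp1r14a, chr2:73613151-73613200 (minus) for Chn1 and chr15:79843001-79843050 (minus) for Pdgfb, with 3502, 466, 299 and 282 copies of the printed fragment.
Dcun1d4: AACCGCGGCCCGGGGGGcg
Ppp1r14a: gAACCGCGGCCCGGGGGGca
Chn1: gAACCGCGGCCCGGGGGGcgt
Pdgfb: gAACCGCGGCCCGGGGGG

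This pattern held for most of the lower protein-coding names. Of the 113 lower over exons, 100 had over 50% of their ES-1 ends in 1 window of 50 nt, and 104 of 112 with enough ends did so in ES-2. The median over these names of their median end length was 21 nt in both UV libraries, and the median name had 34.4% and 30.4% of its ends at their stated place. Of ends in these names, 39.7%, 35.2% and 13.6% were ribosomal-like, against 1.90%, 7.38% and 0.62% in the names that were higher. Over introns, 116 and 110 of the 124 lower names had over 50% in 1 window. The intron of Rpl3, a ribosomal protein gene, was 1 of them, with 3895, 1652 and 106 EPM and 97.2% of its ES-1 ends in 1 window. Its ends in that window were longer than the median above, with 59 and 53 nt in ES-1 and ES-2, and 0.0% of its ends were ribosomal-like. Over lines with both fragments of at least 30 nt the direction turned for Dcun1d4, Chn1 and Pdgfb, to 1.87, 3.03 and 1.83 above the UV mean on the log2 scale. Values for these names describe these stretches and not their mRNAs.

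Lines between different protein-coding genes were also examined. They numbered 25152 in ES-1, 29220 in ES-2 and 96355 in ES indirect, or 7786, 22266 and 29180 per 1000000 lines (collapsed 7630, 22482 and 45534). Of them, 8.10%, 6.07% and 14.6% joined genes of 1 chromosome, where the shares of ends on each chromosome alone give 5.76%, 5.59% and 5.46%. Ends within 100 kb of each other made up 1.18%, 0.22% and 4.67% (collapsed 0.80%, 0.21% and 2.68%). Both ends were intronic in 23.6%, 30.5% and 56.0%. ES indirect therefore held more pairs of nearby genes than either UV library, by more than the UV libraries differed. Overlapping and neighbouring genes with unclear ends can also give such lines, and their share was not tested.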

How the data were processed

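The 3 libraries were read from 3 deposited tables in which each line is 1 pair of fragments. Following the study's methods, the authors had removed amplification duplicates by position and random barcode, divided reads at the linker, mapped both fragments to the mouse genome and annotated them. The submitters' processing notes name TopHat2 2.1.1, mm9 and NCBIM37. The columns used were deposited coordinates and names (unit: other). They hold no measured value, so every count of lines or ends was made here from the deposited lines, and no count model was used. There were 0 columns of values per sample without a sample.

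Lines were counted with Python 3.11.15, numpy 2.4.6, pandas 2.3.3 and scipy 1.17.1 (Wilson intervals). The deposited annotation names the 45S locus and Rpl23 otherwise in ES indirect than in the UV libraries. The names of the 45S locus were made equal by position, and those of Rpl23 by replacing the name Rpl23_snoRNA with Rpl23. A fragment was at its stated place if it matched NCBIM37 there with up to 15% mismatches. Strand came from GENCODE genes. A recurrent piece of 26 nt, gtcctcgcattgcatgggctactagt, which contains the reverse complement of the linker given in the methods, was read from short RNA1 fragments, and a fragment was counted as holding a linker piece if it contained 10 of these bases in a row. The labels assigned ES-1 and ES-2 to the UV group and ES indirect to the chemical group. The study describes ES-1 and ES-2 as independent assays with small technical differences. Whether they were separate cultures is not stated, so their spread may be technical.

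Names in the text are, by direction, the 10 protein-coding names and the 5 of each other type with the greatest fold to the nearer UV library, at a mean of 100 ends per 1000000 or more and called also when collapsed, the 10 names with most same-name lines in ES indirect and in the UV libraries, and members of fixed lists. Names among those not beyond the UV libraries, genes named for shared stretches, and the snoRNAs shown as sequences were chosen after their values were seen. The members and lists were chosen with earlier results of these data known. The rule for calling names was tested on simulated counts per name with known folds. In these counts ES-1 and ES-2 had the same expected level for each name, unlike in the data. They therefore do not show how often the rule errs here. The steps that give same-name shares, order, strand and region were not tested on simulated lines. Alternatives changed the collapsing of lines, fragment length, denominator, limits, annotation, linker pieces, end used and library left out.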

Additional observations from a re-analysis of the deposited data

Results flagged for a closer look

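A piece of the linker remained inside a fragment in some lines, a signal in sequence that the comparisons above did not use and that had no control library. At least 10 bases of it in a row were found in 2.99% of lines in ES-1 (95% Wilson interval 2.97 to 3.01), in 11.1% in ES-2 (11.09 to 11.20) and in 6.08% in ES indirect (6.06 to 6.11). Most lay in RNA1, in 2.53%, 9.12% and 5.04% of lines. Such fragments were found at their stated place in 32.5%, 37.7% and 34.1%. Among ends in SINEs, 24.5%, 52.9% and 25.5% held such a piece, and among ends in protein-coding genes 5.76%, 13.5% and 4.19%. Their part in the levels of SINEs and of protein-coding genes was not tested beyond the removal of these lines.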

How the results depend on the processing

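The same-name share of ES indirect exceeded the UV mean by 44.2 percentage points. It did so by 24.9 with equal coordinates collapsed, 42.6 with both fragments of at least 30 nt, 15.2 without lines whose fragments lay within 2000 bp, 59.9 over lines with both ends named and not ribosomal, and 46.8 without lines that held a linker piece, an alternative chosen after seeing the data, as were the names as deposited, the stated place and the single flow cells. Leaving out 1 UV library gave 43.1 to 45.3. The intronic share exceeded the UV mean by 19.9 points, by 36.9 with both fragments of at least 30 nt, by 12.04 over RNA1 ends, by 31.9 over RNA2 ends, and by 13.99 to 25.8 without 1 UV library.

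Of 19 RNA types 7 lay beyond both UV libraries, 13 with both fragments of at least 30 nt, 3 at 4-fold, and 9 to 13 without 1 UV library, where fewer libraries bound the call. The 728 higher names became 435 with lines collapsed, 318 with the other denominator, 2838 and 62 at limits of 5 and 100 ends per 1000000, 241 at 4-fold, and 929 to 964 without 1 UV library. The 515 lower names became 838 and 266 at these limits, 318 with strand-aware GENCODE names, and 613 to 791 without 1 UV library. Across the alternatives of these 5 results 19 values moved past the limits set for them, and 52 did not. Neither share changed direction, but lower names outnumbered higher ones when collapsed (435 against 507), with the other denominator (318 against 379), over RNA2 ends (547 against 558), at a limit of 100 (62 against 266) and at 4-fold (241 against 406).

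The 85 named genes were chosen as called over all lines and also when collapsed. Collapsing lines or leaving out 1 UV library could therefore not turn their direction, so part of the following count was fixed by this choice. Of 765 alternative values of these genes, 746 kept their direction. The other 19 values belonged to names that were lower in ES indirect over all lines and turned (log2 difference from the UV mean). With both fragments of at least 30 nt these were RLTR6_Mm (1.15), RMER17A-int (4.29), LTRIS5 (1.69), RLTR44-int (2.00), ORR1A3 (0.42), Dcun1d4 (1.87), Grk1 (1.36), Chn1 (3.03), Tbata (0.75), Ednra (0.023), Pdgfb (1.83) and Atp8b1 (0.91). Over RNA1 ends they were Dcun1d4 (1.62), Ptpn5 (0.33) and Tbata (0.62), and over RNA2 ends RLTR6_Mm (0.80), LTRIS5 (1.37), Chn1 (1.24) and Serpinc1 (0.32). Median lengths of the UV ends of these names were mostly near 20 nt, so few were left at 30 nt. The cause was not tested otherwise. No paired analysis was possible because the chemical group held 1 library. Depth limits names such as Snora33 in ES indirect, with 19 same-name lines.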

Other observations

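Mitochondrial RNA was lower in ES indirect. All ends on chromosome M held 59550 ends per 1000000 ends outside nuclear ribosomal RNA in ES-1, 10015 in ES-2 and 3131 in ES indirect, most of them in the mitochondrial ribosomal RNAs (57191, 7519 and 2582). The 13 mitochondrial mRNAs summed to 1493, 674 and 206. Of them, 10 lay below both UV libraries and 6 by 2-fold or more. For all of chromosome M, ES-1 and ES-2 differed from each other by more than ES-2 and ES indirect did.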
